A study of Mus musculus with 6 samples.

Results

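The transcripts described here encode the ligands and receptors of VEGF and angiopoietin signaling, the pathways that govern the growth and stability of blood and lymphatic vessels. The 10 genes, Vegfa, Vegfb, Vegfc, Angpt1, Angpt2, Flt1, Kdr, Flt4, Tek and Tie1, were chosen by name as angiogenic ligands and receptors, out of 23557 genes in the table, and all 10 were listed in it. They were measured by RNA sequencing of whole subcutaneous tumors of CT26, a line of mouse colon carcinoma cells that came from a BALB/c animal, and the comparison asked how these transcripts differed between tumors of mice given the kinase inhibitor H89 and tumors of mice given its vehicle. All mice were female BALB/c animals bought at 7 weeks of age, and all received 500000 CT26 cells under the skin of the flank. From day 6, 3 mice received intraperitoneal H89 at 10 mg/kg in NaCl, 2 times a week, and 3 mice received NaCl alone, and the tumors were taken on day 14. The model is a single transplanted line under the skin rather than in the colon, and each tumor contained its host's vessels, stroma and immune cells. In such bulk samples, fewer cells of a type and less RNA per cell cannot be told apart.

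VEGF ligands are secreted proteins that bind receptor tyrosine kinases on endothelial cells. VEGF-A, encoded by Vegfa and released by hypoxic cells, drives sprouting of vessels mainly through VEGFR2, the product of Kdr, while VEGFR1, the product of Flt1, binds VEGF-A and VEGF-B and can act as a decoy. VEGF-C acts on VEGFR3, the product of Flt4, which is best known in lymphatic vessels. Angiopoietin-1, made mostly by cells around the vessel, activates the receptor TIE2, the product of Tek, and stabilizes the endothelium, whereas angiopoietin-2, made by activated endothelial cells, commonly antagonizes it, and TIE1 is a related receptor that modulates TIE2.

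H89 inhibits protein kinase A and several other kinases, and protein kinase A phosphorylates CREB, a factor that binds the cAMP response element. The RefSeq promoter table for GRCm38.p6 held 8 of the 10 genes. Angpt1 and Angpt2 were not matched. Each promoter was searched, in the 250 bases before the transcription start and on both strands, for TGACG and TGACGTCA (the cAMP response element, of which TGACG is the short form and lies inside the long one), ACGTG and GCGTG (cores of the hypoxia response element), and CCGGAA and CAGGAA (cores bound by ETS factors, the family that includes endothelial regulators). Printed are the promoters of the 4 receptors whose window held a match, 5′ to 3′ on the strand of their gene and with all matches in capitals, because the receptors are set against endothelial markers below and because the full cAMP response element was found upstream of Flt1. The coordinates are chr5:147726012-147726261 for Flt1, chr5:75978456-75978705 for Kdr and chr4:118489850-118490099 for Tie1, all on the minus strand, and chr4:94739039-94739288 for Tek on the plus strand.
Flt1: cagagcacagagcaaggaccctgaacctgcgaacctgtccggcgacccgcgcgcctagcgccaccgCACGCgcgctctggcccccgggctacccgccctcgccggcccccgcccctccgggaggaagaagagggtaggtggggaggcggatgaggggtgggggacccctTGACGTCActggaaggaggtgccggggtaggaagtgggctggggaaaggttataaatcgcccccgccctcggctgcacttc
Kdr: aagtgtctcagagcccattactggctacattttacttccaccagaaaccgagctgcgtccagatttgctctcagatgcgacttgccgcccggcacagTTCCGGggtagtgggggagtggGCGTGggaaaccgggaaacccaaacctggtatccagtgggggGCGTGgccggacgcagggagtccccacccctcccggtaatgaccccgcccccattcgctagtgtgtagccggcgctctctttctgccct
Tie1: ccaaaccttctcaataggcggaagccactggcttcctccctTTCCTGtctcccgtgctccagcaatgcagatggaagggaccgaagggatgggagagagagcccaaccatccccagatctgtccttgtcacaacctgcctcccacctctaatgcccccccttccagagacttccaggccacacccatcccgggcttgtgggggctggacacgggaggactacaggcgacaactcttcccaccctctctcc
Tek: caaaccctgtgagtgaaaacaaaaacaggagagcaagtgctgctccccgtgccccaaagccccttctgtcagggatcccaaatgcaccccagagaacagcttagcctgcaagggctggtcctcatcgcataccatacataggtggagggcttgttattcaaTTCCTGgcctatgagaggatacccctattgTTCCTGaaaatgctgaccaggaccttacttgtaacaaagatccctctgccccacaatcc

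Flt1 held TGACGTCA 1 time, a sequence present in 1.55% of 32851 promoter windows of this length, and GCGTG 1 time, which was present in 28.2%. Kdr held CCGGAA 1 time, present in 12.0% of windows, and GCGTG 2 times. Tek held CAGGAA 2 times and Tie1 held it 1 time, against 25.7% of windows with at least 1 match. The first of the 2 Vegfa entries held CAGGAA 1 time and no match for ACGTG or GCGTG, which were present in 16.6% and 28.2% of windows. The second entry, which lies inside the gene, held each of the 2 hypoxia cores 1 time and the short cAMP response element, present in 17.8% of windows, 1 time. Its ACGTG and TGACG matches lie on overlapping bases and are not separate sites. Vegfb held GCGTG 2 times. In the windows of Vegfc and Flt4 no match was found. These matches describe the sequence of the 250-base windows and are not measured binding sites. Sequence outside the windows was not searched, so a missing match does not show that a gene lacks the element.

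The deposited values are estimated counts, and the total per tumor was between 27067349 and 29067921 for NaCl and between 28548727 and 31958793 for H89-treated tumors. Levels are given as counts per 1000000 (CPM) on library sizes scaled by edgeR's TMM method, and log2 fold changes are those of H89 over NaCl, positive where the level under H89 was the higher one. Genes with a mean of at least 0.5 CPM were tested, 13118 in all, and 208 of them, 1.59% (0.861% higher and 0.724% lower with H89), had a Benjamini-Hochberg adjusted p under 0.05 in edgeR's quasi-likelihood test, a count that fell to between 0 and 12 when any 1 of the 6 tumors was left out. The unadjusted p was under 0.05 for 25.0% of the genes. The values of the H89 and NaCl groups did not overlap for 30.7%, with 15.2% above and 15.5% below the controls, and with unscaled library totals for 30.5%, with 20.5% above and 10.0% below. Of 10 colon epithelial markers, Cdx1, Cdx2 and Vil1 stayed below 1 CPM in all 6 tumors. Krt20 was at 65.8 to 103 CPM, Krt18 at 7.76 to 23.6 CPM and Lgals4 at 5.60 to 8.12 CPM. The sum of the list, most of it from Krt20, was 116 to 130 CPM in NaCl and 85.3 to 99.7 CPM in H89-treated tumors. Of the 6 tested genes of the list, 4 had log2 fold changes above 0 and 2 below, with a median of 0.15. H89 tumor 1 had the highest summed level of 10 skeletal muscle genes, 26.8 CPM, against 4.59 and 6.30 CPM in the other H89 tumors and 10.8 to 12.3 CPM in NaCl tumors. Each tumor came from its own mouse, and no sequencing batch or date is given.

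None of the 9 members that passed the filter on low values had a Benjamini-Hochberg adjusted p under 0.05 in edgeR's quasi-likelihood test, and the count at an unadjusted p under 0.05 was also 0. Of all genes tested, 1.59% and 25.0% met these thresholds. DESeq2, limma voom, and limma on log2(CPM + 0.1) or log2(CPM + 1) gave 0 members by either count as well. Limma on log2(CPM + 0.1) and log2(CPM + 1) called only 4 and 0 of all genes at the adjusted threshold, so its adjusted counts of members carry little information. Angpt1, the remaining member, did not pass the filter. For each of the 10 members, the H89 and NaCl values overlapped, where the groups did not overlap for 30.7% of all genes tested. The log2 fold changes of the 9 tested members lay between -0.42 and 0.23 with a median of -0.10, and 5 of the 9 were below 0, where 49.4% of all genes tested were. A p that misses the threshold does not show that the groups were alike, and the 95% intervals are therefore given with each gene. The plot of CPM by tumor shows the members from Vegfa down to Angpt1.

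**Figure D1:**
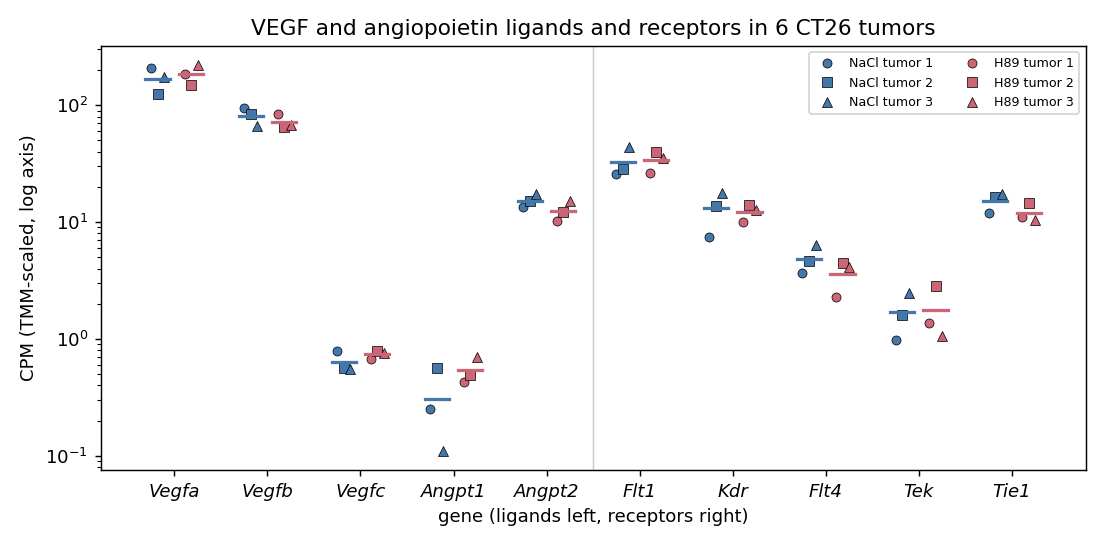
CPM of each ligand and receptor (y, log axis, TMM-scaled library sizes) in the 3 NaCl (blue) and 3 H89-treated (red) tumors, with horizontal lines at the group means and the symbol giving the tumor number. The blue and red points overlap for all 10 genes, from Vegfa at 125 to 220 CPM down to Angpt1 at 0.110 to 0.700 CPM.

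Among the ligands, Vegfa (ENSMUSG00000023951, chromosome 17 from 46016993 to 46032369 in GRCm38) had the highest CPM of the 10 members. It was measured at 207, 125 and 173 CPM in NaCl tumors 1 to 3 and at 184, 149 and 220 CPM in H89-treated tumors 1 to 3. The lowest tumor was a control and the highest was H89-treated, and the other 4 tumors were interleaved. The means were 168 ± 40.8 CPM (SD, n = 3) for NaCl and 184 ± 35.6 CPM (SD, n = 3) for H89. The log2 fold change was 0.13 with a standard error of 0.20 and a 95% interval from -0.33 to 0.59, which corresponds to a fold between 0.794 and 1.51 (edgeR quasi-likelihood test, Benjamini-Hochberg adjusted p = 0.715). The sign was not fixed by the data, since the log2 fold change was -0.04 without NaCl tumor 2 and -0.02 without H89 tumor 3.

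Vegfb (ENSMUSG00000024962, chromosome 19 from 6982473 to 6987651) encodes a VEGFR1 ligand associated with heart and fat rather than with sprouting. Its level was 94.2, 84.2 and 66.6 CPM in NaCl and 83.7, 64.7 and 68.2 CPM in H89-treated tumors. NaCl tumor 1 was the highest of all, but NaCl tumor 3 lay among the H89-treated tumors. Vegfb had a log2 fold change of -0.18 with a standard error of 0.15 and a 95% interval from -0.52 to 0.16 (edgeR, Benjamini-Hochberg adjusted p = 0.486). It was -0.06 without NaCl tumor 1, -0.10 without H89 tumor 2, -0.31 without NaCl tumor 3 and -0.30 without H89 tumor 1.

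Vegfc (ENSMUSG00000031520, chromosome 8 from 54077606 to 54187096), the lymphangiogenic ligand, was near the filter on low values. Between 15 and 26 counts per tumor gave 0.792, 0.560 and 0.549 CPM in NaCl and 0.678, 0.791 and 0.761 CPM in H89-treated tumors. NaCl tumor 1 matched the highest H89-treated tumor, while NaCl tumors 2 and 3 were lower than any of them. A log2 fold change of 0.23 had a 95% interval from -0.43 to 0.89 (edgeR, Benjamini-Hochberg adjusted p = 0.648), and it was -0.07 in limma after quantile normalization, where both the scaling and the test were changed.

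Angpt2 (ENSMUSG00000031465, chromosome 8 from 18690263 to 18741562) was measured at 13.4, 15.1 and 17.4 CPM in NaCl and at 10.3, 12.1 and 15.2 CPM in H89-treated tumors. H89 tumors 1 and 2 lay below all NaCl tumors, whereas H89 tumor 3 was above NaCl tumors 1 and 2. The means were 15.3 ± 2.02 CPM (SD, n = 3) for NaCl and 12.5 ± 2.47 CPM (SD, n = 3) for H89. Its log2 fold change was -0.29 with a standard error of 0.17 and a 95% interval from -0.69 to 0.11 (edgeR, Benjamini-Hochberg adjusted p = 0.332). Without H89 tumor 3, the log2 fold change was -0.45 with an unadjusted p of 0.0280 and an adjusted p of 0.197 in the same edgeR test. It was -0.17 without H89 tumor 1 and -0.19 without NaCl tumor 3, at unadjusted p values of 0.343 and 0.357 in edgeR.

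Angpt1 (ENSMUSG00000022309, chromosome 15 from 42424723 to 42676977) was the least abundant ligand. Only 7, 15 and 3 counts were assigned to it in NaCl tumors and 12, 16 and 23 counts in H89-treated tumors, that is 0.252, 0.560 and 0.110 CPM against 0.428, 0.487 and 0.700 CPM. NaCl tumor 3 was the lowest and H89 tumor 3 the highest, and NaCl tumor 2 lay between H89 tumors 2 and 3. In edgeR without the filter, the log2 fold change was 0.80 with a standard error of 0.54 (Benjamini-Hochberg adjusted p = 0.452), and DESeq2 gave 0.80 with a standard error of 0.75. An exon of Angpt1 overlaps Gm17473 in the annotation, so that reads could be shared between them.

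Because angiopoietin-2 competes with angiopoietin-1 for TIE2, the ratio of their transcripts was compared within each tumor. Per transcript length, Angpt2 exceeded Angpt1 by 63.6-fold, 32.3-fold and 190-fold in NaCl tumors and by 28.7-fold, 29.7-fold and 25.9-fold in H89-treated tumors. The ratio was lower in each H89-treated tumor than in any NaCl tumor, but the H89 values were close to that of NaCl tumor 2. By the CPM of single genes, the groups did not overlap, in either direction, for 30.7% of all genes tested. The exact 95% counting interval of NaCl tumor 3, which rests on 3 counts of Angpt1, ran from 64.6 to 924, and that of NaCl tumor 2 ran from 19.4 to 58.3 and covered all 3 H89 values. On the log2 scale, with a pseudocount of 0.5 CPM on unscaled totals, the mean was 4.30 ± 0.50 (SD, n = 3) for NaCl and 3.65 ± 0.11 (SD, n = 3) for H89. The difference of -0.65 was -0.37 without NaCl tumor 3. It is given as a description without a test.

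**Figure D2:**
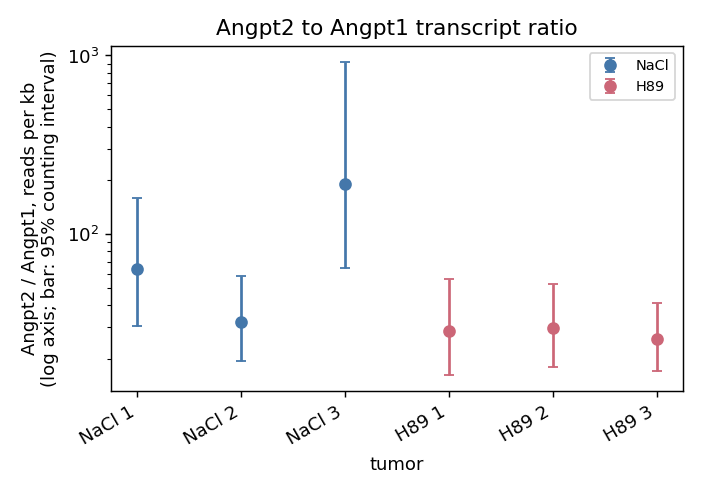
Angpt2 to Angpt1 ratio per transcript length (y, log axis) in each tumor, with bars for the exact 95% interval of counting error alone. The H89-treated tumors lie at 25.9 to 29.7 and the NaCl tumors at 32.3 to 190, and the interval of NaCl tumor 2 spans all H89 points.

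Among the VEGF receptors, Flt1 (ENSMUSG00000029648, chromosome 5 from 147561604 to 147726011) was measured at 25.8, 28.6 and 43.7 CPM in NaCl and at 26.3, 40.0 and 35.1 CPM in H89-treated tumors. NaCl tumor 1 was the lowest and NaCl tumor 3 the highest, so that the H89 values fell within the range of the controls. A log2 fold change of 0.05 had a standard error of 0.22 and a 95% interval from -0.47 to 0.56 (edgeR, Benjamini-Hochberg adjusted p = 0.915). It was -0.10 without NaCl tumor 1, -0.04 without NaCl tumor 2 and -0.09 without H89 tumor 2.

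Kdr (ENSMUSG00000062960, chromosome 5 from 75932827 to 75978458), the main signaling receptor for VEGF-A, was measured at 7.52, 13.8 and 17.9 CPM in NaCl and at 10.1, 14.0 and 12.6 CPM in H89-treated tumors. Again the lowest and the highest tumor were controls, a spread of 2.38-fold, and all H89-treated tumors lay between them. The means were 13.1 ± 5.24 CPM (SD, n = 3) for NaCl and 12.2 ± 1.98 CPM (SD, n = 3) for H89. Its log2 fold change was -0.10 with a standard error of 0.29 and a 95% interval from -0.77 to 0.58 (edgeR, Benjamini-Hochberg adjusted p = 0.864). It was 0.20 without NaCl tumor 3 and 0.02 without H89 tumor 1.

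Flt4 (ENSMUSG00000020357, chromosome 11 from 49609263 to 49652739) had the lowest point estimate of the 9 tested members. Its level was 3.64, 4.63 and 6.33 CPM in NaCl and 2.28, 4.47 and 4.14 CPM in H89-treated tumors. H89 tumor 1 was the lowest, and H89 tumors 2 and 3 lay between NaCl tumors 1 and 2. The log2 fold change was -0.42 with a standard error of 0.31 and a 95% interval from -1.13 to 0.29 (edgeR, Benjamini-Hochberg adjusted p = 0.428), and it was -0.18 without H89 tumor 1 and also without NaCl tumor 3. Lymphatic endothelial markers were scarce: of 6 genes, Ccl21a was at 0 in all tumors, and Prox1, which defines lymphatic identity, Reln and Mmrn1 stayed below 1 CPM. The summed level of the 6 was 56.0 to 62.5 CPM in NaCl and 32.6 to 56.5 CPM in H89-treated tumors, nearly all of it from Pdpn and Lyve1, which fibroblasts or macrophages also express. Pdpn was measured at 48.8, 32.2 and 37.2 CPM in NaCl and at 20.9, 25.6 and 30.2 CPM in H89-treated tumors, with a log2 fold change of -0.62 (edgeR, Benjamini-Hochberg adjusted p = 0.101), and its part in the Flt4 result was not tested.

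Among the angiopoietin receptors, Tek (ENSMUSG00000006386, chromosome 4 from 94739289 to 94874976) was measured at 0.972, 1.60 and 2.49 CPM in NaCl and at 1.36, 2.86 and 1.06 CPM in H89-treated tumors. H89 tumor 2 was the highest and NaCl tumor 1 the lowest, and the counts, between 27 and 94 per tumor, were few. For Tek, edgeR gave a log2 fold change of 0.06 with a standard error of 0.46 and a 95% interval from -1.00 to 1.13, or a fold between 0.499 and 2.19 (Benjamini-Hochberg adjusted p = 0.947), the widest interval of the 9 tested members. It was -0.20 in limma after quantile normalization, -0.21 without NaCl tumor 1 and -0.48 without H89 tumor 2.

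Tie1 (ENSMUSG00000033191, chromosome 4 from 118471191 to 118490061) had the smallest p of the 9 tested members. It was measured at 11.9, 16.4 and 17.5 CPM in NaCl and at 11.0, 14.6 and 10.4 CPM in H89-treated tumors. H89 tumors 1 and 3 lay below all controls, and H89 tumor 2 lay above NaCl tumor 1. The means were 15.3 ± 2.98 CPM (SD, n = 3) for NaCl and 12.0 ± 2.25 CPM (SD, n = 3) for H89. The log2 fold change was -0.34 with a standard error of 0.19 and a 95% interval from -0.79 to 0.10 (edgeR, Benjamini-Hochberg adjusted p = 0.300). With edgeR, Tie1 had an unadjusted p of 0.0258 without NaCl tumor 1 and 0.0358 without H89 tumor 2, and the adjusted p values were 0.178 and 0.236. With any other tumor left out, the log2 fold change lay between -0.29 and -0.24 and the unadjusted p between 0.233 and 0.303 in edgeR.

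**Figure D3:**
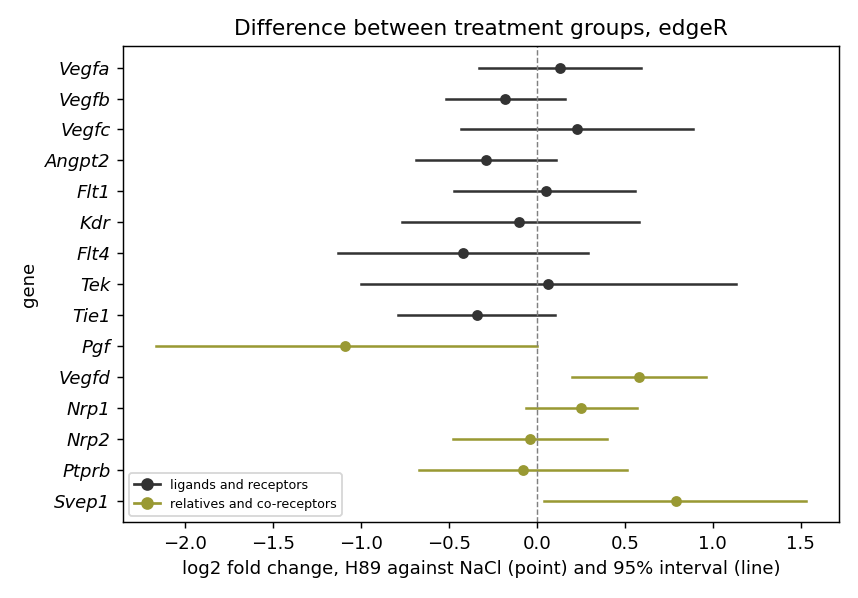
Log2 fold change of H89 against NaCl (x) with the 95% interval from edgeR for the 9 tested ligands and receptors (dark) and 6 tested relatives and co-receptors (olive). The 9 dark intervals all include 0, and Tek has the widest, from -1.00 to 1.13, while the intervals of Vegfd and Svep1 lie above 0.

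Levels of different genes were compared as CPM per kilobase of the longest coding transcript, averaged over the 6 tumors. Vegfb, at 60.0 ± 9.43 CPM per kilobase (SD, n = 6 tumors), and Vegfa, at 51.1 ± 10.2, stood far above the other members. Their ranges overlapped, and with the median transcript length Vegfa came first at 154, so that their order depends on the isoform. Flt1 followed at 4.82 ± 1.09, then Angpt2 at 3.91 ± 0.711, Tie1 at 3.22 ± 0.699 and Kdr at 2.14 ± 0.603 CPM per kilobase, and each of these 4 overlapped its neighbor in range. Flt4 at 0.679, Tek at 0.370 and Vegfc at 0.281 formed the next group, in which neighbors also overlapped, and below them all was Angpt1 at 0.0992 CPM per kilobase. No tumor's value overlapped between Vegfa and Flt1, between Kdr and Flt4, or between Vegfc and Angpt1. With the median transcript length Vegfc, at 0.458, came before Tek, at 0.379.

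The receptors are products of endothelial cells for the most part, and the endothelial marker list was therefore measured beside them. All 20 endothelial genes passed the filter and none was at 0 in all tumors. Of the 20, none had an adjusted p under 0.05, 5 had a lower level in H89-treated tumors at an unadjusted p under 0.05 in edgeR (Cldn5, Tal1, Esam, Plvap and Egfl7), and 0 had a higher one, against 11.9% and 13.1% of all genes tested. In all, 16 of the 20 log2 fold changes were below 0, against 49.4% of all genes tested. Their median was -0.29, where the median of all genes tested was 0.004. Cldn5, a tight junction protein of vessels, was measured at 3.28, 5.07 and 6.11 CPM in NaCl and at 2.18, 3.16 and 2.53 CPM in H89-treated tumors. Its H89 values lay below all controls on this scale, as for 15.5% of all genes tested, but overlapped them on unscaled totals. The log2 fold change of Cldn5 was -0.87 (edgeR, Benjamini-Hochberg adjusted p = 0.110). Tal1, an endothelial and blood cell transcription factor, had a log2 fold change of -0.68 (adjusted p = 0.121) and Esam, an adhesion molecule, one of -0.53 (adjusted p = 0.171) in the same edgeR test. The summed level was 1210 to 1266 CPM in NaCl and 1103 to 1197 CPM in H89-treated tumors, of which Cd34 alone, which is also found on other cells, made 824 to 939 CPM. The mean log2(CPM + 0.5) over the list was 3.62 ± 0.24 (SD, n = 3) for NaCl and 3.39 ± 0.18 (SD, n = 3) for H89. It was 3.36, 3.69 and 3.81 in NaCl tumors 1 to 3 and 3.29, 3.59 and 3.28 in H89-treated tumors 1 to 3.

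Each receptor was then expressed as its log2(CPM + 0.5) minus the endothelial mean of the same tumor, here with unscaled library totals, and the groups were compared by an exact two-sided permutation test, whose smallest p for 3 against 3 is 0.1. Tie1 followed the endothelial markers most closely. Its difference from the endothelial mean was 0.27, 0.39 and 0.35 in NaCl and 0.23, 0.33 and 0.17 in H89-treated tumors, a range of 0.21 over the 6 tumors, where its own level ranged over 0.64. The group difference of Tie1 was -0.09 (exact permutation p = 0.2), and 0.03 when the median of the endothelial list was used in place of the mean. For Flt1, the values relative to the endothelial mean were 1.36, 1.17 and 1.65 in NaCl and 1.45, 1.75 and 1.88 in H89-treated tumors, a difference of 0.30 (exact permutation p = 0.2). NaCl tumor 3 lay above H89 tumor 1, and the other H89-treated tumors lay above all controls. Kdr differed by 0.21 (exact permutation p = 0.5), Tek by 0.25 (p = 0.6) and Flt4 by -0.16 (p = 0.8), and the last of these was 0.06 without H89 tumor 1. Kdr differed by 0.00 without NaCl tumor 1, and Tek by 0.02 without H89 tumor 2. In these 5 comparisons the smallest unadjusted p was 0.2, and the groups overlapped for all 5 receptors. With the median of the endothelial list in place of its mean, the differences were 0.42 for Flt1 and 0.37 for Tek, each at an exact permutation p of 0.1, the smallest that the test can give, and 0.33 for Kdr (exact permutation p = 0.2).

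**Figure D4:**
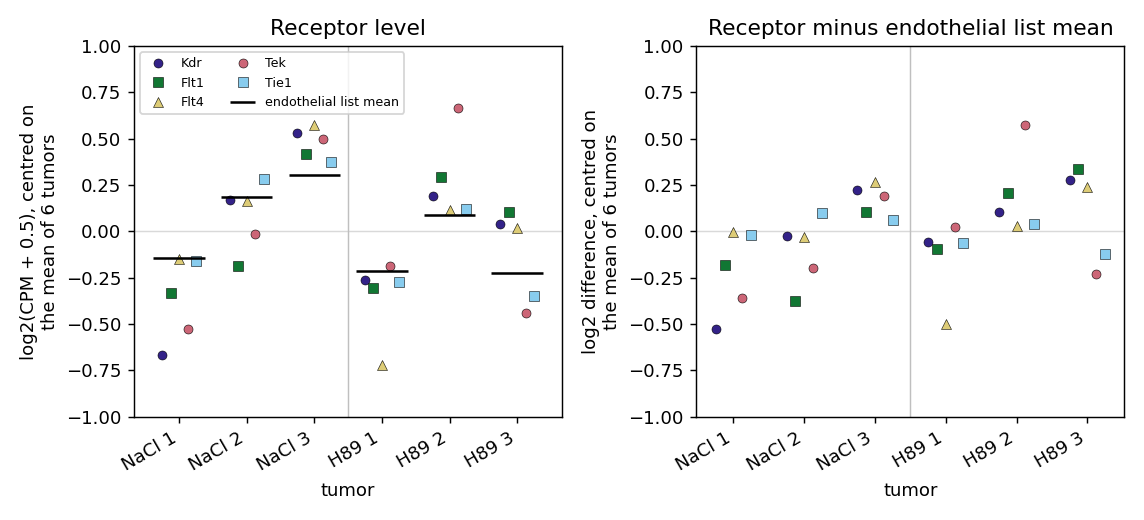
Left, log2(CPM + 0.5) of each receptor (points) and mean of 20 endothelial genes (black lines) by tumor, on TMM-scaled library sizes and centred on the mean of the 6 tumors. Right, the receptor minus the endothelial mean, on unscaled totals and centred in the same way, where Tie1 spans 0.21 and Tek 0.94 on the log2 scale.

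Cells around the vessel, which are a source of angiopoietin-1, were represented by 12 pericyte and smooth muscle genes, 10 of them above the filter. Kcnj8, a potassium channel of pericytes, was measured at 4.25, 5.60 and 10.9 CPM in NaCl and at 0.535, 3.04 and 1.73 CPM in H89-treated tumors, without overlap, with a log2 fold change of -1.95 (edgeR, Benjamini-Hochberg adjusted p = 0.101). Mcam, shared by pericytes and endothelium, had a log2 fold change of -0.55 (adjusted p = 0.184), and Pdgfrb, the PDGF receptor of mural cells and fibroblasts, one of 0.24 (adjusted p = 0.185) by edgeR. No other gene of the list had an unadjusted p under 0.05, so that 1 was higher and 2 were lower, against 13.1% and 11.9% of all genes tested. Without overlap between the groups, 2 tested genes of the list were higher and 1, Kcnj8, was lower, against 15.2% and 15.5% of all genes tested. The median of the list was -0.17, and its summed level was 181 to 251 CPM in NaCl and 176 to 221 CPM in H89-treated tumors. Fibroblast markers, 10 of 10 tested, had log2 fold changes above 0 throughout, with a median of 0.32 and 4 genes (Postn, Col3a1, Col1a2 and Dcn) at an unadjusted p under 0.05 in edgeR, all higher, against 13.1% of all genes tested. Their sum was 2523 to 2770 CPM in NaCl and 2842 to 3627 CPM in H89-treated tumors. The part of these cells in the ligand and receptor levels was not tested.

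The relatives and co-receptors of the members were read from a list of 9 genes, of which 6 were tested. None had an adjusted p under 0.05 in edgeR, and Vegfd and Svep1 had an unadjusted p under 0.05, both higher in H89-treated tumors, against 13.1% of all genes tested. Vegfd, which encodes the other lymphangiogenic ligand of VEGFR3, was measured at 23.2, 19.2 and 15.7 CPM in NaCl and at 33.6, 25.8 and 27.6 CPM in H89-treated tumors. All H89-treated tumors were above all controls, as for 15.2% of all genes tested. The log2 fold change was 0.58 with a 95% interval from 0.20 to 0.96, a fold of 1.50 (edgeR, Benjamini-Hochberg adjusted p = 0.0959). DESeq2, which called 1392 genes at an adjusted p under 0.05 against 208 in edgeR, gave 0.56 with an adjusted p of 0.0230. Svep1, an extracellular protein that binds angiopoietins and TIE1, was measured at 0.918, 0.975 and 1.48 CPM in NaCl and at 2.69, 1.73 and 1.51 CPM in H89-treated tumors, with a log2 fold change of 0.79 (edgeR, adjusted p = 0.182). This was 0.50 without H89 tumor 1, 0.35 in limma after quantile normalization and 0.46 in limma with a pseudocount of 1. Pgf, the placental growth factor that binds VEGFR1, was measured at 7.34, 7.65 and 16.1 CPM in NaCl and at 2.50, 3.77 and 8.31 CPM in H89-treated tumors. H89 tumor 3 lay above NaCl tumors 1 and 2, and the log2 fold change of -1.09 had a 95% interval from -2.17 to 0.00 (edgeR, adjusted p = 0.201).

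Of 22 signal transducers downstream of the receptors, which many other receptors also use, 21 were tested. None had an adjusted p under 0.05 in edgeR, 2 had a higher and 4 a lower level at an unadjusted p under 0.05, against 13.1% and 11.9% of all genes tested, and the median was -0.08. Pik3r1, the regulatory subunit of PI3-kinase, was measured at 43.9, 39.9 and 41.4 CPM in NaCl and at 48.6, 50.2 and 50.8 CPM in H89-treated tumors (log2 fold change 0.26, edgeR, Benjamini-Hochberg adjusted p = 0.107). Mapk3, the kinase ERK1, was measured at 521, 406 and 404 CPM in NaCl and at 342, 348 and 337 CPM in H89-treated tumors. The fitted log2 difference of -0.37 had an adjusted p of 0.108 in edgeR and of 0.0245 in DESeq2, which called 1392 genes against 208 in edgeR. The difference of Mapk3 was -0.24 without NaCl tumor 1 and -0.22 in limma after quantile normalization. Src, a kinase recruited by activated VEGFR2, was measured at 97.7, 87.4 and 89.9 CPM in NaCl and at 78.4, 74.5 and 77.6 CPM in H89-treated tumors (log2 fold change -0.25, edgeR adjusted p = 0.108). The groups did not overlap for these 3 genes, as for 30.7% of all genes tested. Sh2d2a, an adaptor of VEGFR2 that is also expressed by T cells, had a log2 fold change of 1.23 with a 95% interval from 0.01 to 2.45 (edgeR, adjusted p = 0.198), and its values were 5.74, 3.45 and 1.64 CPM in NaCl and 7.92, 3.90 and 13.6 CPM in H89-treated tumors. Without H89 tumor 3 its log2 fold change was 0.70 in edgeR. With all 6 tumors, the unadjusted p of Sh2d2a was 0.0787 in DESeq2 and 0.0689 in voom. The summed level of 9 T cell genes was 16.1 to 36.9 CPM in NaCl and 32.2 to 78.0 CPM in H89-treated tumors, with none of the 9 at 0 in all tumors, and its part in the Sh2d2a result was not tested.

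Genes that mark tip cells, the leading cells of a vessel sprout, and that respond to VEGF were read from a list of 10, all tested. None had an adjusted p under 0.05 in edgeR. Rcan1 and Dll4 had an unadjusted p under 0.05, both lower in H89-treated tumors, against 11.9% of all genes tested. The log2 fold changes were below 0 for 9 of the 10, the exception being Egr3, against 49.4% of all genes tested, and their median was -0.33. Whether these transcripts came from tip cells or from other cells of the tumor was not tested. Rcan1, an inhibitor of calcineurin induced by VEGF-A, was measured at 23.1, 22.6 and 25.5 CPM in NaCl and at 17.3, 19.9 and 18.6 CPM in H89-treated tumors. All H89-treated tumors lay below all controls, as for 15.5% of all genes tested. The log2 fold change of Rcan1, -0.35, had a 95% interval from -0.60 to -0.11 (edgeR, Benjamini-Hochberg adjusted p = 0.105). Dll4, the Notch ligand of tip cells, was measured at 9.00, 11.8 and 17.1 CPM in NaCl and at 5.92, 9.64 and 8.82 CPM in H89-treated tumors, with overlap, and had a log2 fold change of -0.63 (edgeR, adjusted p = 0.193), which was -0.35 without NaCl tumor 3. Kcne3, a potassium channel subunit, had a log2 fold change of -0.89 with a 95% interval from -1.82 to 0.04 (edgeR, adjusted p = 0.216).

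**Figure D5:**
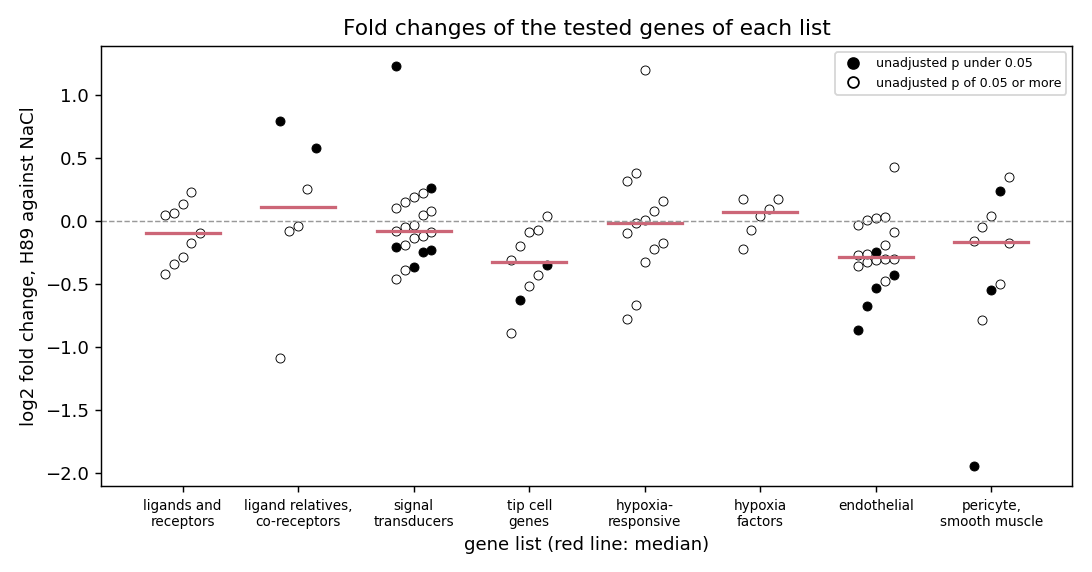
Log2 fold change of H89 against NaCl (y) for the tested genes of the ligand and receptor list, 5 pathway lists and 2 cell type lists (x), with filled points for an unadjusted p under 0.05 in edgeR and red lines for medians. The medians of the tip cell genes, -0.33, and of the endothelial genes, -0.29, lie below that of the ligands and receptors, -0.10.

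Hypoxia, the best known inducer of Vegfa, was read from 13 responsive genes and 6 genes of the oxygen-sensing machinery, all tested. In edgeR, none of the 19 had an adjusted or an unadjusted p under 0.05, and the medians were -0.02 and 0.07. The responsive genes with the smallest p were Egln3, at a log2 fold change of -0.78 (edgeR, Benjamini-Hochberg adjusted p = 0.297), Adm, at -0.67 (adjusted p = 0.300), and Car9, at 1.20 (adjusted p = 0.430). Of the machinery, Hif1an had -0.22 (adjusted p = 0.254), Arnt 0.17 (adjusted p = 0.355) and Vhl 0.17 (adjusted p = 0.562) in the same edgeR test. The summed level of the 13 responsive genes ran from 2718 to 5821 CPM. It was 5821, 2866 and 3944 CPM in NaCl and 3925, 2718 and 4735 CPM in H89-treated tumors. Most of it came from Pgk1, at 850 to 1795 CPM, and Ldha, at 1142 to 2180 CPM. NaCl tumor 2 and H89 tumor 2, which had the lowest sums, also had the lowest Vegfa. Egln3, Adm and Pfkfb3 were lowest in H89 tumor 1, and the other responsive genes in tumor 2 of NaCl or of H89. Over all 5 pathway lists, 56 genes were tested, 4 were higher and 6 lower at an unadjusted p under 0.05, where 13.1% and 11.9% of all genes tested were, and none had an adjusted p under 0.05 in edgeR.

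The tested genes whose profiles over the 6 tumors came closest to those of Vegfa, Kdr and Angpt2 were found by the root mean square distance between log2(CPM + 0.5) values after each gene had been centred on its mean. For Vegfa, which varied by 0.275 around its mean, they were P4ha1 at a distance of 0.0489, Gm7008 at 0.0687 and Insig2 at 0.0710, where the median of 13109 genes was 0.333. P4ha1, a collagen prolyl hydroxylase that is itself one of the hypoxia-responsive genes above, was measured at 181, 110 and 143 CPM in NaCl and at 158, 118 and 183 CPM in H89-treated tumors. Like Vegfa, it was low in tumor 2 of each group. For Kdr, which varied by 0.380, the nearest were Clca2 at 0.0969, Stab1 at 0.0982 and Rnf144a at 0.102, with a median over all genes of 0.419. Stab1, a scavenger receptor of sinusoidal endothelium and macrophages, was measured at 158, 266 and 298 CPM in NaCl and at 180, 247 and 219 CPM in H89-treated tumors. For Angpt2, which varied by 0.238, the nearest were Atf6 at 0.0565, Zfp106 at 0.0603 and Pdgfb at 0.0620, with a median of 0.294. Pdgfb, by which sprouting endothelium recruits pericytes and which is one of the tip cell genes above, was measured at 19.7, 24.1 and 28.6 CPM in NaCl and at 15.4, 19.8 and 23.2 CPM in H89-treated tumors. These distances rest on 6 tumors, are chosen as the smallest of many, and carry no test.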

How the data were processed

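RNA of 6 CT26 tumors, 3 of NaCl mice and 3 of mice treated with H89, was sequenced on a BGISEQ-500 platform. The authors deposited 1 table of estimated counts (expected counts, without any scaling for depth or length) for 23557 genes. It is called TPM, but each tumor's values sum to at least 27067349 and 58.6% to 61.4% of the values above 0 lie within 0.01 of a whole number. The submitters' processing notes name kallisto, DESeq2 and the build GRCm38, without versions. Of the gene columns, 174 were recorded by name and 23383 others were read in the same way.

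Counts were rounded, and genes with a mean of at least 0.5 CPM entered the test of edgeR 4.0.16, under R 4.3.3 (TMM, glmQLFit, glmQLFTest, treatment as the only term, Benjamini-Hochberg adjustment over all 13118 genes). Standard errors were computed as the size of the log2 fold change over the root of its F statistic. Printed CPM use TMM-scaled library sizes, except for the receptor comparison and the angiopoietin ratio, which use unscaled totals. At these depths 1 count is 0.0313 to 0.0369 CPM. Counting intervals cover counting error only, and 3 tumors per group limit the precision. Gene positions and transcript lengths are from GENCODE M21 on GRCm38, and promoters from RefSeq for GRCm38.p6. The scripts were tested on simulated data.

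Members and gene lists were chosen with earlier results of these data known. The text names all 10 members, the 3 genes with the smallest p of each pathway list and up to 3 of each cell type list, and the 3 genes nearest to Vegfa, Kdr and Angpt2. Sh2d2a, Plvap, Egfl7, Dcn, Egr3 and Cd34 were named beside them after their values had been seen, as were Lyve1, Prox1, Reln, Mmrn1, Cdx1, Cdx2, Vil1 and Lgals4. The same holds for Pgk1, Ldha and Pfkfb3. Alternatives were no filter, at least 5 CPM, median ratio and quantile normalization, DESeq2 1.42.0, limma 3.58.1 with voom or with pseudocounts of 0.1 and 1, the replicate number as a block, each tumor left out, and, chosen after seeing the data, unrounded counts.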

Additional observations from a re-analysis of the deposited data

How the results depend on the processing

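No ligand or receptor had a Benjamini-Hochberg adjusted p under 0.05 in any of 16 alternatives, and the smallest adjusted p of a member was 0.148. Angpt1 was tested only without the filter and in DESeq2, and only 6 members were tested at a mean of at least 5 CPM. Settings in which 0 to 12 of all genes passed carry little information on the adjusted counts of members. The number of all genes past that threshold, 208, was 0 in limma after quantile normalization, 4 and 0 in limma without it at pseudocounts of 0.1 and 1, 1392 with DESeq2, which was run on 18837 genes without the filter, and 0 to 12 with 1 tumor left out. The deviations of tumors with the same number correlated at 0.163, 0.061 and -0.025, so the numbers were not taken to pair tumors. With the replicate number as a block, 0 genes passed. In that edgeR fit, 1 of 9 members (Angpt2) and 17 of 56 pathway genes had an unadjusted p under 0.05, against 0 and 10 without the block. Of all 13118 genes tested, 3750 did so with the block and 3285 without it. With 1 tumor left out, the counts were 0 to 1 for members and 6 to 15 for pathway genes, against 2421 to 3453 for all genes tested. The median log2 fold change of the members, -0.10, ranged from -0.21 to 0.14 with 1 tumor left out, and those of Vegfa from -0.04 to 0.30, of Kdr from -0.38 to 0.20, of Flt1 from -0.10 to 0.31 and of Tek from -0.48 to 0.45. In limma after quantile normalization Vegfc had -0.07 and Tek -0.20. Vegfb, Flt4, Angpt2 and Tie1 stayed below 0 in all alternatives run. Relative to the endothelial markers, the difference of Flt4 ranged from -0.32 to 0.06 with 1 tumor left out, and with the median of the markers that of Tie1 was 0.03, of Flt1 0.42, of Tek 0.37 and of Kdr 0.33, against -0.09, 0.30, 0.25 and 0.21 with the mean. The difference in the angiopoietin ratio was -1.07 with a pseudocount of 0.1 CPM and -0.86 to -0.37 with 1 tumor left out. The cause of these shifts was not tested. Vegfc, Tek and Angpt1 had at most 94 counts per tumor.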

Other observations

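Macrophage markers, a source of angiogenic factors in tumors, were abundant and none of the 10 had an unadjusted p under 0.05 in edgeR, where 25.0% of all genes tested did. Their sum was 2123 to 3395 CPM in NaCl and 2574 to 3091 CPM in H89-treated tumors. Adgre1, which encodes F4/80, had a log2 fold change of 0.45 (edgeR, Benjamini-Hochberg adjusted p = 0.418), Cd68 one of -0.11 (adjusted p = 0.525) and Lyz2 one of -0.15 (adjusted p = 0.612). All 9 T cell genes had log2 fold changes above 0, with a median of 1.20, and 5 had an unadjusted p under 0.05 in edgeR, all higher, against 13.1% of all genes tested. The smallest p of the list were those of Cd3g at 1.64 (adjusted p = 0.101), Cd8a at 1.76 (adjusted p = 0.104) and Cd5 at 1.76 (adjusted p = 0.123), and all of them overlapped between groups.

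Of 9 keratinocyte genes, 7 were below the filter and 3 were at 0 in all tumors (Krt1, Ivl and Dsg1a), but Cdsn, a corneodesmosome protein, fell by 2.15 on the log2 scale (edgeR, adjusted p = 0.0288). The keratinocyte sum was 46.1 to 73.5 CPM in NaCl and 15.0 to 18.5 CPM in H89-treated tumors, of which Cdsn alone made 43.1 to 69.7 and 10.3 to 14.3 CPM. Krt10 had a log2 fold change of 0.31 (edgeR, adjusted p = 0.465), and Trp63, below the filter and named after its values had been seen, was at 0.180 to 0.329 CPM in NaCl and 0.535 to 1.03 CPM in H89-treated tumors. Cox6a2, a muscle form of a cytochrome oxidase subunit, fell by 1.87 (edgeR, adjusted p = 0.0407). Neither passed that threshold without NaCl tumor 2, NaCl tumor 3, H89 tumor 1 or H89 tumor 2, when 0 of all genes did. Acta1, skeletal muscle actin, was at 12.3 CPM in H89 tumor 1 and at most 0.576 CPM in the other tumors. Of the 6 tested skeletal muscle genes, 4 had log2 fold changes above 0 and 2, among them Cox6a2, below, with a median of 0.70. Of 6 tested colon epithelial genes, Krt20 had a log2 fold change of -0.47 (adjusted p = 0.0627), Krt18 one of -1.04 (adjusted p = 0.0653) and Krt19 one of 2.56 (adjusted p = 0.213) in edgeR. Of 8 adipocyte genes, 4 were tested, with sums of 12.0 to 36.9 CPM in NaCl and 14.3 to 36.4 CPM in H89-treated tumors, and Cfd was at 7.46 CPM in H89 tumor 1 and at most 0.448 CPM in the others.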
